A study of Rattus norvegicus with 6 samples.

Results

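Podocyte genes were examined in the renal cortex of rats given N-nitrosodimethylamine (NDMA). The 8 genes were Nphs1, Podxl, Wt1, Synpo, Plce1, Ptpro, Cdkn1c and Tcf21, and they were read by the 19 array probes listed under RefSeq transcripts of these genes. They make up 8 of the 31915 genes and other features that could be tested. NDMA is a nitrosamine whose oxidation by cytochromes P450 yields a DNA methylating agent. The animals were 6 male Sprague-Dawley rats of the Crl:CD(SD) stock, bought at 5 weeks of age. Water was given to 3 control rats for 4 weeks, and the other 3 received NDMA at 4 mg/kg/day for 4 weeks. RNA from the cortex of each rat was hybridised to its own 1-colour Agilent array. The 3 controls and NDMA animal 1 shared slide 1, whereas NDMA animals 2 and 3 were on slide 2.

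Podocytes are the epithelial cells that wrap the capillaries of the glomerulus, the filtering unit of the kidney. Their interlocking foot processes are bridged by the slit diaphragm, a protein sheet that retains plasma proteins, and rest on a basement membrane made together with the endothelium. Mature podocytes rarely divide, and their loss or the loss of their foot processes lets protein pass into the urine. All signals here are from whole cortex, so fewer podocytes and less RNA per podocyte cannot be told apart.

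Defining podocyte transcripts were present in every sample. All 19 probes were well above background on all 6 arrays, with processed signals from 55.0 to 29756, and none of their spots was saturated or flagged as an outlier. Signals are given below as log2 of the processed signal minus the array's 75th percentile, so 0 is the level of the 75th percentile probe. Differences are NDMA minus control on that scale, with the moderated standard error (SE) from limma. A level is specific to its probe and cannot be set against that of another probe. Where a gene had several probes, the brightest stood for the gene.

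Promoter windows are shown for 3 of the genes because Wt1 and Tcf21 encode transcription factors of the podocyte and Nphs1 and Podxl are known targets of WT1. The windows were taken from RefSeq on rat build GRCr8 and hold the 250 bases before the annotated start, written 5′ to 3′ on the gene's strand. Windows were found for 6 of the 8 genes, which leaves out Cdkn1c and Plce1. Capitals mark matches to CANNTG, the general E-box letters, which are not specific to factors of the TCF21 type. The Nphs1 window lies at chr1:94848011-94848260 on the plus strand, the Podxl window at chr4:61149132-61149381 on the minus strand and the Wt1 window at chr3:112021759-112022008 on the plus strand.
Nphs1: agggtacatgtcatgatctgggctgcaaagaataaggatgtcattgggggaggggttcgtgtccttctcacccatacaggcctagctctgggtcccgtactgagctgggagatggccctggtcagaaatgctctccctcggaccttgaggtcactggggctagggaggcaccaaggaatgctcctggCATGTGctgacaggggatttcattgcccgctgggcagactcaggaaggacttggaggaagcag
Podxl: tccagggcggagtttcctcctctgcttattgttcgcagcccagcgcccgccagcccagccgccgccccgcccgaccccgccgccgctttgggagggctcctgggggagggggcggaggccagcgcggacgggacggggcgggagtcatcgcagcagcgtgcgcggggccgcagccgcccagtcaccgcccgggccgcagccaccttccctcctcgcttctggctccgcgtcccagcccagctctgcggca
Wt1: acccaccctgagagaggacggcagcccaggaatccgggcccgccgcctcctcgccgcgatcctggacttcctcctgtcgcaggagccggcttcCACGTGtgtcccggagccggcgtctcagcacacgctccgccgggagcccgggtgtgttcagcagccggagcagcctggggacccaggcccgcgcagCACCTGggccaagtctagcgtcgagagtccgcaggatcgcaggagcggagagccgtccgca
An E-box match occurred in 2 of the 6 windows, with 1 match in Nphs1 and 2 in Wt1, against 65.5% of the 33469 rat windows of the same length. The letters GTGGGAG, a core of WT1 sites, were searched on both strands, were found in 0 of the 6 and occur in 7.5% of all windows. The letters GCGGGGGCG, a site shared by WT1 and EGR factors, were found in 0 of the 6 on either strand and occur in 2.4% of all windows. The looser letters GNGGGNGNG were found in 4 of the 6 and in 36.4% of all windows, and TATAAA in 0 of the 6 and 12.9%. Both were searched before GCGGGGGCG, which was chosen after their matches were seen. Base composition differed, with 57.2% G and C for Nphs1, 76.4% for Podxl and 71.6% for Wt1, against a median of 51.2% over all windows.

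None of the 8 podocyte genes differed between NDMA and control rats past the threshold of an adjusted p of 0.05 in limma. In the same fit 3.00% of all features passed, 2.52% higher and 0.476% lower after NDMA. At an unadjusted p under 0.05, 1 of the 8 genes passed, Cdkn1c, against 18.8% of all features. Log2 differences ran from -0.33 for Tcf21 to 0.30 for Cdkn1c, with 6 of the 8 above 0. Their median was 0.07, and the median over all features was -0.05. In 7 of the 8 genes the 95% confidence interval of the difference lay within a 1.5-fold change in either direction, the exception being Tcf21, and this held for 64.7% of all features. In 4 of the 8, Nphs1, Synpo, Plce1 and Ptpro, every NDMA animal fell inside the range of the 3 controls, against 11.8% of all features.

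**Figure D1:**
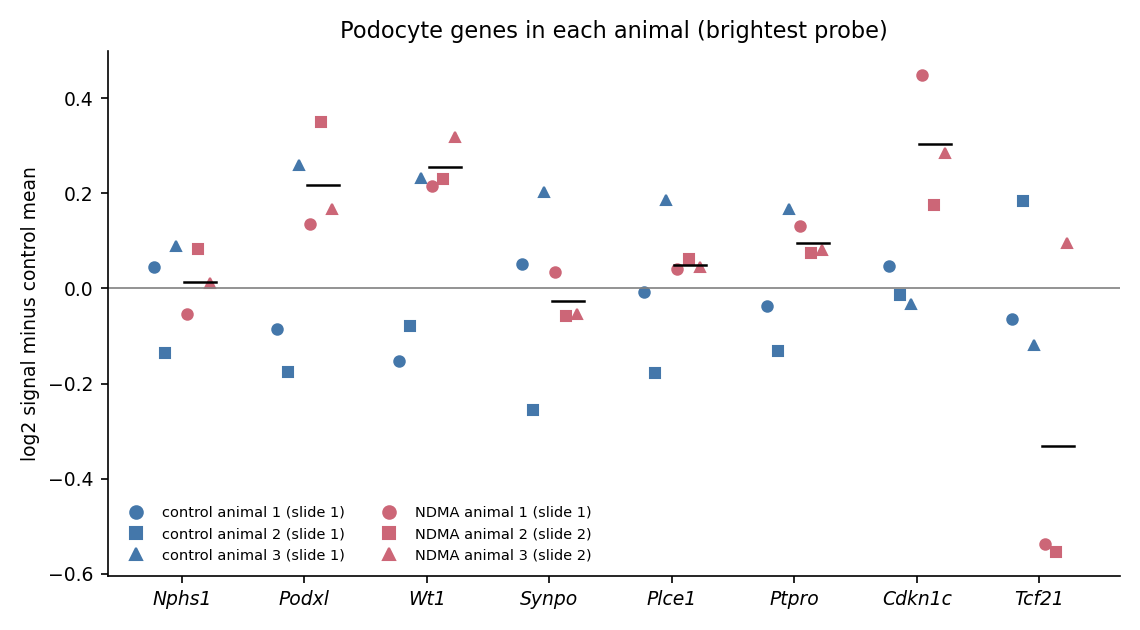
Log2 signal of the brightest probe of each podocyte gene in each of the 6 animals, minus the mean of the 3 controls; colours mark groups, symbols animals, and black bars the NDMA mean. Cdkn1c is the gene whose groups do not overlap, and Tcf21 is low in NDMA animals 1 and 2 and not in animal 3.

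Nphs1 encodes nephrin, the transmembrane protein that forms the core of the slit diaphragm. Its brightest probe read 1.21, 1.03 and 1.26 in controls 1 to 3 and 1.11, 1.25 and 1.18 in NDMA animals 1 to 3. The groups overlapped fully, and the lowest and the highest value were both those of controls. The difference was 0.01 ± 0.09 (SE, n = 3 per group), with a 95% interval from -0.21 to 0.24 and an adjusted p of 0.952. As a fold this interval runs from 0.862 to 1.18. The other Nphs1 probe read 0.11, -0.12 and 0.06 in controls and -0.02, 0.19 and 0.14 after NDMA, a difference of 0.09 ± 0.10.

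Ptpro encodes a receptor tyrosine phosphatase of the podocyte membrane, also known as GLEPP1. The brightest of its 3 probes read 2.81, 2.71 and 3.01 in controls and 2.98, 2.92 and 2.92 in NDMA animals. All NDMA animals lay between control 1 and control 3. The difference was 0.10 ± 0.10 with an interval from -0.15 to 0.34 (adjusted p = 0.635). The other two probes of this transcript differed by 0.06 and 0.11, with overlapping groups at each.

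Plce1 encodes phospholipase C epsilon 1, a signalling enzyme needed for podocyte development. Its single probe read -0.74, -0.91 and -0.55 in controls. The NDMA animals were at -0.69, -0.67 and -0.69, almost equal to each other and in the middle of the controls. The spread was 0.18 (SD) in controls and 0.01 after NDMA, and the difference was 0.05 ± 0.11 (adjusted p = 0.835).

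Synpo encodes synaptopodin, an actin-associated protein of the foot processes. Its single probe read -2.48, -2.79 and -2.33 in controls and -2.50, -2.59 and -2.59 in NDMA animals. Here too the NDMA values sat inside the control range. The difference was -0.03 ± 0.13 with an interval from -0.34 to 0.29 (adjusted p = 0.932).

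Podxl encodes podocalyxin, the negatively charged sialoprotein that coats the podocyte surface and is also made by endothelium. Its probe read 4.07, 3.98 and 4.42 in controls and 4.29, 4.51 and 4.32 in NDMA animals. Control 3 lay above NDMA animals 1 and 3, so the groups overlapped. The difference was 0.22 ± 0.14 (1.16-fold, adjusted p = 0.428), with an interval from -0.11 to 0.55. Among 9 endothelial genes 0 passed in limma and 0 had an unadjusted p under 0.05, against 18.8% of all features. The median difference of the 9 genes was -0.00041, with list means from -0.09 to 0.09 in controls and from -0.08 to 0.10 after NDMA. The part of endothelium in the Podxl value was not tested.

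Wt1 encodes the zinc finger transcription factor that sets podocyte identity and acts on Nphs1 and Podxl. Its brightest probe read -0.47, -0.40 and -0.09 in controls and -0.10, -0.09 and 0.00 in NDMA animals. NDMA animals were close together and near control 3, above controls 1 and 2. The difference was 0.25 ± 0.12 (1.19-fold, interval from -0.03 to 0.54, adjusted p = 0.311). The 4 probes of the Wt1 transcript did not give 1 value. The second probe read -3.31, -3.61 and -3.25 in controls and -2.69, -3.19 and -2.99 after NDMA, a difference of 0.43 ± 0.16 without overlap of the groups (adjusted p over probes 0.232). The third read -3.95, -3.98 and -3.73 in controls and -3.32, -3.69 and -3.45 after NDMA, 0.40 ± 0.13 and again without overlap (adjusted p over probes 0.182). The fourth read -3.96, -4.17 and -3.50 in controls and -3.58, -3.94 and -4.02 after NDMA, a difference of 0.03 ± 0.20. These 3 probes had low processed signals, between 55.0 and 164, and whether the 4 probes differ from each other was not tested.

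Cdkn1c encodes p57Kip2, an inhibitor of cyclin-dependent kinases that keeps podocytes out of the cell cycle and is also made elsewhere in the kidney. Its brightest probe read 2.70, 2.64 and 2.62 in controls and 3.10, 2.83 and 2.94 in NDMA animals. Every NDMA animal lay above every control, which was the case for 1 of the 8 podocyte genes and for 11.1% of all features. Counting either direction, the groups of 27.6% of features did not overlap. The difference was 0.30 ± 0.10 (1.23-fold, interval from 0.07 to 0.54), and it did not pass after adjustment (adjusted p = 0.179). With this SE a difference of at least 0.51 would have been needed for a call. The 5 probes of Cdkn1c, which are listed under a pair of RefSeq transcripts, differed by 0.30, 0.29, 0.30, 0.23 and 0.22, all above 0. The 3 probes of the first transcript lay between 0.29 and 0.30 and the 2 of the second between 0.22 and 0.23. In 3 of the 5 the groups did not overlap. NDMA animal 2 had the lowest value of the NDMA group at each of the 5 probes, for example 1.08 against 1.41 and 1.43 at the fourth probe, where controls read 1.12, 1.02 and 1.09. The related inhibitor Cdkn1b differed by 0.09 ± 0.08 at its brightest probe (adjusted p = 0.597) and by -0.05 ± 0.21 at its other probe. For Cdkn1a, its other relative, the brightest probe was at -0.19 ± 0.08 and the remaining pair at 1.92 and 2.26 without passing. No direction can be read from 3 probes that disagree.

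Tcf21 encodes a basic helix-loop-helix transcription factor of podocytes and of stromal cells. Its brightest probe read -0.17, 0.08 and -0.22 in controls and -0.64, -0.66 and -0.01 in NDMA animals. NDMA animals 1 and 2 were below all controls, and NDMA animal 3 lay among them. The difference was -0.33 ± 0.20 with the widest interval of the 8 genes, from -0.81 to 0.15 (adjusted p = 0.404). The second probe read -3.22, -3.03 and -3.22 in controls and -3.48, -4.00 and -3.10 after NDMA, a difference of -0.37 ± 0.23. There too NDMA animals 1 and 2 were below all controls and NDMA animal 3 lay among them. Without NDMA animal 3 the difference of the brightest probe was -0.55, and without NDMA animal 2 it was -0.22. The spread among NDMA animals, 0.37 (SD), was larger than the difference itself. Of the 5 stromal fibroblast genes measured of 7 listed, 0 passed in limma and 1 had an unadjusted p under 0.05, against 18.8% of all features. The mean of this stromal list ran from -0.10 to 0.18 in controls and from 0.05 to 0.23 after NDMA. The part of stromal cells in the Tcf21 values was not tested.

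Over all 19 probes, 0 passed the threshold in the probe fit of limma, where 2.99% of probes passed. At an unadjusted p under 0.05, 4 of the 19 passed, 2 of Wt1 and 2 of Cdkn1c, against 18.3% of all probes. Differences were above 0 at 16 probes and below 0 at 3, those of Synpo and Tcf21. The groups did not overlap at 5 probes, all of them higher after NDMA, against 10.9% of probes that did so in that direction and 26.9% in either. Probes of 1 gene are not independent, and 9 of the 19 belong to Wt1 and Cdkn1c.

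**Figure D2:**
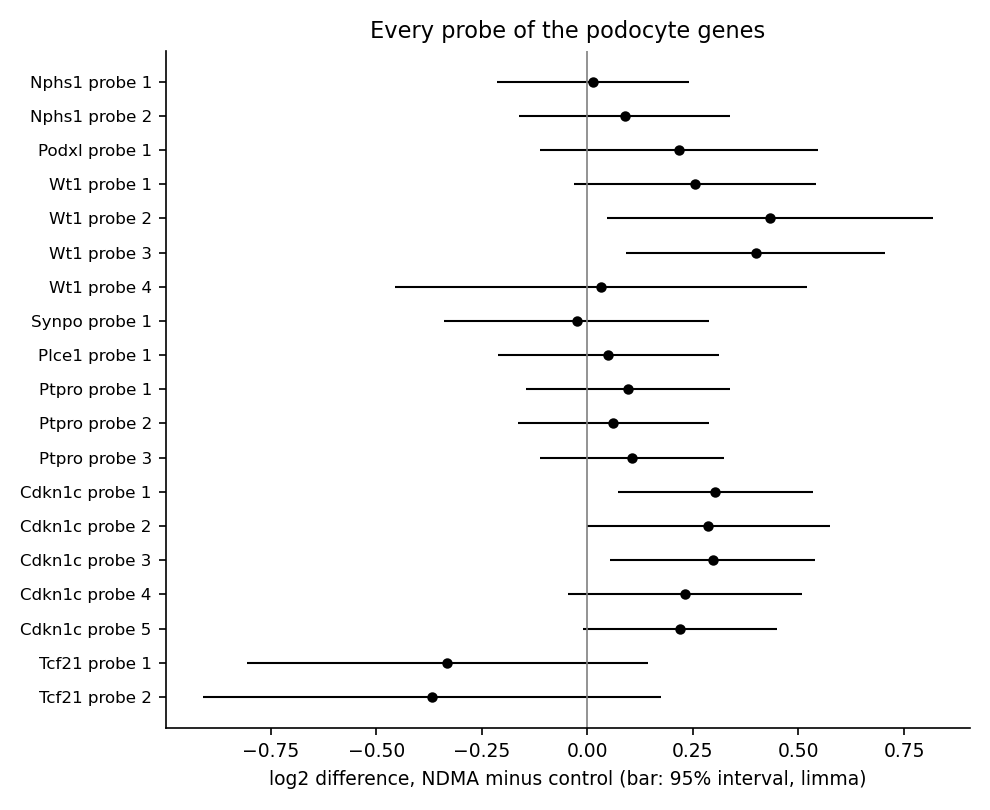
Log2 difference, NDMA minus control, at each of the 19 probes, ordered within a gene from the brightest down; bars are 95% confidence intervals from limma. The 5 Cdkn1c probes lie between 0.22 and 0.30, the 4 Wt1 probes between 0.03 and 0.43 and both Tcf21 probes below 0.

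The controls stood in the same order in most of the podocyte genes. Control 2 had the lowest and control 3 the highest control value in 5 of the 8 genes, namely Nphs1, Podxl, Synpo, Plce1 and Ptpro, against 18.4% of all features. This order was picked after the values were seen, and genes read on the same arrays are not independent. Averaged over the 8 genes and relative to the control mean, control 1 was at -0.03, control 2 at -0.10 and control 3 at 0.12. NDMA animals 1 to 3 were at 0.05, 0.05 and 0.12, inside the span of the controls. The SD was larger among controls than among NDMA animals in 6 of the 8 genes, all but Cdkn1c and Tcf21, against 42.7% of features. When each array was centred on the mean of the other 7 podocyte genes, a scaling chosen after the data were seen, Cdkn1c differed by 0.26 ± 0.14 (adjusted p = 0.432) and Wt1 by 0.21 ± 0.11 (adjusted p = 0.379). The groups did not overlap at these 2 genes on that scale. On the main scale the groups of 27.6% of all features did not overlap, and the share on the centred scale is not given here. The exact permutation test gave p = 0.1 for each, the smallest value that 3 against 3 animals allow. That value follows from the lack of overlap and adds nothing to it. Tcf21 differed by -0.46 ± 0.23 on the centred scale (adjusted p = 0.261).

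Among RefSeq-named genes well above background on all arrays, 11755 in number, the profile over the 6 animals closest to the mean podocyte profile was that of Armc6, with a root mean square difference of 0.017 on the log2 scale. Abo, Nfu1, Itpr3 and Bnip1 followed at 0.022, 0.023, 0.025 and 0.028. These are the nearest of many flat profiles over 6 arrays, and all arrays of a profile share their scaling.

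No call was made among other podocyte genes either. Of 40 listed, 31 had a measured probe, each well above background on all 6 arrays. In limma 0 of the 31 passed, against 3.00% of all features, and 3 had an unadjusted p under 0.05, against 18.8%. Of the 31, 13 were above and 18 below 0, with a median of -0.01. In 26 of the 31 the 95% interval lay within 1.5-fold, against 64.7% of all features. In whole cortex, genes of this list can also be read from other cells. The part of podocytes in their values was not tested. Cd2ap, an adaptor that binds nephrin, differed by 0.10 ± 0.09, and Fat1, a large cadherin of the slit diaphragm, by 0.31 ± 0.11 (adjusted p = 0.212).

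Among 6 measured genes of the foot process cytoskeleton the median was -0.05 and 0 passed in limma. An unadjusted p under 0.05 was found for 1 of the 6, against 18.8% of all features. That gene was Arhgap24, the lowest of the 31 at -0.30 ± 0.12 (adjusted p = 0.248 in limma). Actn4, the actin crosslinker alpha-actinin 4, differed by -0.08 ± 0.08 (adjusted p = 0.588). Of 2 measured transcription factors of podocytes 0 passed in limma, with 1 above and 1 below 0. The lower was Foxc2, at -0.11 ± 0.14 (adjusted p = 0.697), and Lmx1b had no probe matched by accession. Of 6 genes of the glomerular basement membrane and its integrins 0 passed and 0 had an unadjusted p under 0.05, with a median of -0.05. Lamb2, the laminin beta 2 chain of that membrane, differed by -0.07 ± 0.11 (adjusted p = 0.776), and Col4a3 had no matched probe. The widest difference of the 31 was that of Pla2r1, a phospholipase A2 receptor, which is singled out here after its value was seen. It was listed under the podocyte surface, and whether rat podocytes make it was not tested. Pla2r1 read -4.95, -5.37 and -4.58 in controls and -4.28, -4.46 and -4.10 after NDMA. The groups did not overlap at this gene, and the difference was 0.68 ± 0.21 at a low signal (adjusted p = 0.169 in limma). Counting either direction, the groups did not overlap at 5 of the 31 genes, against 27.6% of all features.

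**Figure D3:**
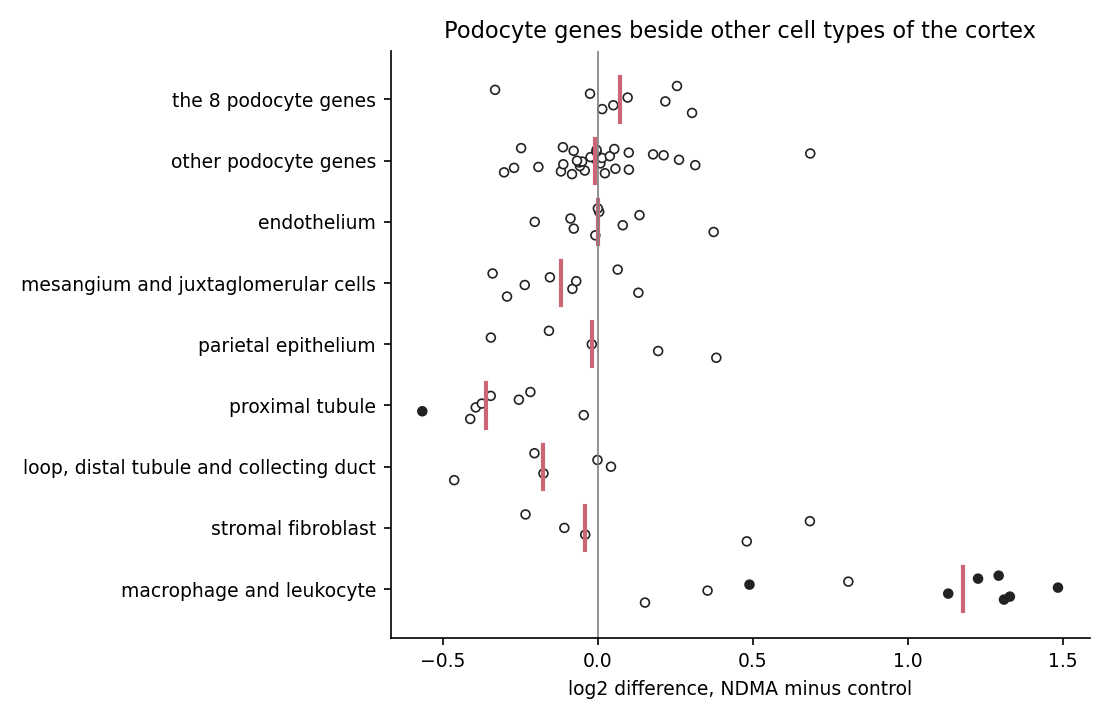
Log2 difference, NDMA minus control, of every measured gene of the podocyte lists and of lists for other cell types of the cortex; filled points passed an adjusted p of 0.05 in limma and red bars are list medians. The medians are 0.07 for the 8 podocyte genes, -0.01 for the other podocyte genes, -0.36 for proximal tubule and 1.18 for macrophages and leukocytes.

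Lists of proximal tubule, leukocyte and B cell markers held genes that passed. Of 8 proximal tubule genes, all lay below 0 with a median of -0.36, and 1 passed, against 0.476% of all features lower after NDMA. It was Lrp2, the endocytic receptor megalin, at -0.57 ± 0.10 (adjusted p = 0.0448 in limma). Slc13a3, a dicarboxylate transporter, differed by -0.39 ± 0.08 without passing (adjusted p = 0.0538). Of 10 macrophage and leukocyte genes, all lay above 0 with a list median of 1.18, and 7 passed, against 2.52% of all features higher after NDMA. The 7 included Cd68 at 1.48 ± 0.14 and C1qb at 1.33 ± 0.12. The mean of the 10 genes ran from -0.27 to 0.21 in controls and from 0.88 to 1.10 in NDMA animals. Ptpro, which leukocytes can also make, differed by 0.10, and the part of leukocytes in its values was not tested. The B cell list had 3 of 5 genes measured, and 1 passed, Blk, a B cell kinase (adjusted p = 0.0357). Blk was well above background on the 3 NDMA arrays and on 0 control arrays, so it entered the test only through the group where it is high. Its level after NDMA was at least 1.71-fold that of controls, taking as the control level on each array the higher of its own value and the lowest signal well above background. It passed in 1 of the 6 fits without 1 animal, the one without control 1.

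With slide as a block none of these 9 calls was kept. The differences were then -0.44 ± 0.14 for Lrp2 (adjusted p = 0.363), 1.32 ± 0.18 for Cd68 (adjusted p = 0.0880) and 1.27 ± 0.19 for C1qb (adjusted p = 0.0936), resting on NDMA animal 1. Without 1 animal Lrp2 passed in 0 of 6 fits, while 5 or 6 of the leukocyte genes passed in each.

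Lists for the remaining cell types gave no calls in limma. The counts at an unadjusted p under 0.05 given here stand beside 18.8% of all features. For 8 genes of the mesangium and juxtaglomerular cells the median was -0.12, 2 had an unadjusted p under 0.05, and the smallest p values were those of Agtr1a, the angiotensin II receptor, and Itga8, a mesangial integrin, at -0.29 ± 0.08 and -0.24 ± 0.08 (adjusted p = 0.134 and 0.198). For 5 genes of the parietal epithelium the median was -0.02 and 1 had an unadjusted p under 0.05, Pax8, a transcription factor also of tubules, at -0.35 ± 0.09 (adjusted p = 0.134). For 5 measured genes of the loop, distal tubule and collecting duct 0 passed, the median was -0.18, and 1 had an unadjusted p under 0.05, Aqp2, the water channel of the collecting duct, at -0.46 ± 0.16 (adjusted p = 0.199). List means of the loop and collecting duct ran from -0.07 to 0.06 in controls and from -0.20 to -0.10 after NDMA.

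**Figure D4:**
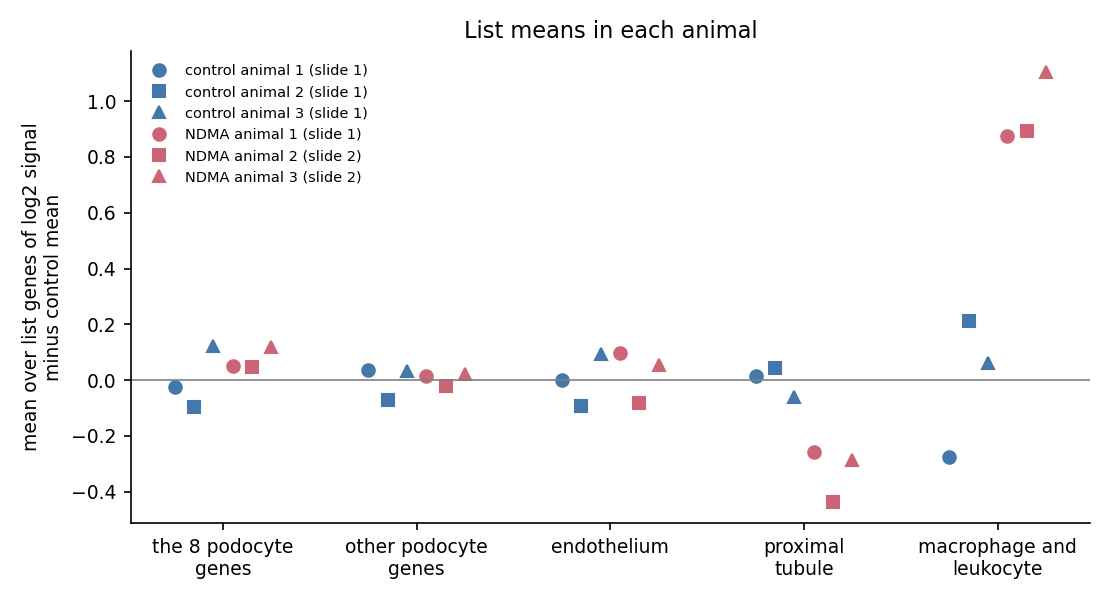
Mean over the genes of a list of the log2 signal minus the control mean, for each of the 6 animals, with colours for groups and symbols for animals. The 8 podocyte genes run from -0.10 to 0.12 in controls and from 0.05 to 0.12 after NDMA, while macrophage and leukocyte genes run from 0.88 to 1.10 after NDMA.

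The slide moved with the groups, since slide 2 held NDMA animals only. On slide 1, where NDMA animal 1 stood against the 3 controls, the differences were -0.05 for Nphs1, 0.13 for Podxl, 0.21 for Wt1, 0.04 for Synpo, 0.04 for Plce1, 0.13 for Ptpro, 0.45 for Cdkn1c and -0.54 for Tcf21. A fit with slide as a block rests on the same animal and gives the same values. None of the 8 passed there, with an adjusted p of 0.266 for Cdkn1c and 0.640 for Tcf21, and 0.210% of all features did. For NDMA animals 2 and 3, slide and treatment cannot be told apart.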

How the data were processed

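The authors' scanner files hold spot intensities from Agilent Feature Extraction 10.7.1.1, per the file headers (10.7 per the submitters' processing notes). The deposited processed intensity is background-subtracted and spatially detrended within its array. The authors' value table is a ratio on a linear scale, found to equal processed intensity over the array's 75th percentile within 0.00174 on the log2 scale for values above 0.1. Its columns had medians from 0.110 to 0.115. Groups came from the sample titles, and replicates are separate animals per the series' design text.

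Processed intensities of the 61657 non-control probes were taken to log2 and reduced by the array's 75th percentile, which ranged from 993 to 1310. Outlier spots were set missing, which touched 18 values of tested probes and none of the podocyte probes. A probe was kept if every array of either group had it well above background (43118 probes). Between 43016 and 46248 probes were well above background per array, and 6 arrays limit the precision. Names came from RefSeq (GRCr8) by accession without version, for 27460 probes. Array annotation on rn4 gave no coordinates here. The group difference was fitted in limma 3.58.1 (R 4.3.3, two-sided) with 4 residual degrees of freedom and 2.36 from the prior. P-values were adjusted by Benjamini-Hochberg over all 31915 features, each gene read by its brightest probe, and again over the 43118 probes. The fit was tested on simulated data.

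The members and lists were chosen with earlier results of these data known. Genes named are all members with all probes, Cd2ap, Actn4, Lmx1b, Col4a3, Lamb2, Cdkn1a and Cdkn1b, any other podocyte gene past the threshold, the 2 genes with the smallest p of each other cell type list, and the 5 nearest profiles; a few genes of the rule are not reported here. Arhgap24, Fat1, Foxc2 and Pla2r1 were named after their values were seen. Alternatives were normexp background correction, quantile or median scaling, other detection filters, a trended robust variance, slide or replicate blocks, slide 1 alone, the authors' table, outlier spots kept, probe means, each animal left out and, added later, centring on the other 7 podocyte genes.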

Additional observations from a re-analysis of the deposited data

How the results depend on the processing

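The counts of 0 called among the 8 podocyte genes, their 19 probes and the 31 other podocyte genes held in each setting that was run, and so in every fit without 1 animal. The fits on slide 1 alone and with slide as a block made few or no calls over all features. Both rest on NDMA animal 1, so they add little to these counts. The lowest adjusted p of any podocyte gene was 0.0759, for Cdkn1c with normexp. Podxl, Wt1 and Cdkn1c stayed above 0 and Tcf21 below 0 in all 19 settings. The median difference of the 8 genes, 0.07, ran from -0.0045 without control 2 to 0.16 without control 3. Genes near 0 changed sign. Nphs1 was at -0.0050 with median centring, -0.054 with slide as a block and on slide 1 alone, and -0.067 when centred on the other podocyte genes, and without 1 animal it ran from -0.054 without control 2 to 0.059 without control 3. Synpo was at 0.035 with slide as a block and on slide 1 alone, and without 1 animal ran from -0.15 to 0.076. Plce1 was at -0.034 with normexp and -0.026 when centred on the other podocyte genes, and without 1 animal ran from -0.039 to 0.14. Ptpro was at -0.00031 with normexp. The cause was not tested.

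The count over all features, 957, was 371 with no detection filter, which tests more probes, 67 with slide as a block, 0 on slide 1 alone and from 364 to 749 without 1 animal. With the replicate number as a block it was 351, and 0 of the 8 podocyte genes passed. Deviations of same-numbered animals correlated at 0.04, -0.05 and 0.03, and those of different-numbered animals at -0.10 to 0.07. With 3 animals per group these values cannot show whether the numbers pair the animals. With 3 animals per group, a call needed a difference of 0.50 for Nphs1 and of 1.05 for Tcf21, at their SE, so smaller changes would not have been called.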
